A study of Mus musculus with 6 samples.

Results

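Small RNA of whole brain was compared between wild-type and Adar2-/- mice for 7 of the 1055 mature miRNAs in the count tables, namely miR-3099, miR-421, miR-542-3p, miR-574-5p, miR-708, miR-708* and miR-873. They were taken by name because the study lists them as subject to A to I editing and do not belong to the largest miRNA clusters, with miR-708 added as the opposite arm of miR-708*. Mir542 does lie in a group of neighbouring miRNA genes, which is described with its locus. The study also listed miR-873 among edited miRNAs whose abundance changed in these same libraries, so its fold change and the ratio of its arms are not independent evidence. The animals were female siblings of the 129SV strain aged 5.5 months, 3 wild type and 3 Adar2-/-, each giving 1 library from 1 brain. Mice of both genotypes were homozygous for the pre-edited Gria2 R/R allele, which rescues the lethality of the Adar2 deletion, and ADAR1 was intact in both. The deletion is carried in every cell, whole brain mixes all cell types, and a change in the number of cells that make a miRNA cannot be told apart from a change of its level per cell. Which RNA was edited is not recorded in the counts, so editing levels were not analysed here. Edited and unedited reads that aligned to a miRNA are counted together. An edited base is a mismatch to the reference, and whether the mismatch limit of the alignment removed more edited reads was not tested.

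ADARs are enzymes that turn adenosine into inosine within RNA duplexes, and the stems of miRNA precursors are among their substrates. Drosha and Dicer cut the precursor, and a mature miRNA of either arm can be loaded into Argonaute, where the seed, bases 2 to 8, selects mRNA targets. Inosine pairs like guanosine, so editing within the seed can move a miRNA to other targets, and editing or binding of an ADAR near a cleavage site can alter how much mature miRNA is made.

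The mature sequences show what an ADAR and a target would meet. They are RefSeq entries on GRCm38.p6, written 5′ to 3′ with the seed in capitals, and the table holds 6 of the 7 miRNAs, all but miR-421.
miR-3099: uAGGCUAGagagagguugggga
miR-708: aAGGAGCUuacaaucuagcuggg
miR-708*: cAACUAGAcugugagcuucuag
miR-873: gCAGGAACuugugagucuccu
miR-542-3p: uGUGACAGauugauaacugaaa
miR-574-5p: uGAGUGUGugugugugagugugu
The 6 miRNAs had 6 different seeds and were 21 to 23 bases long, so read counts were compared between them without a correction for length. UAG, the neighbour context that ADARs are known to prefer, was searched on the given strand only. It was present in miR-3099, miR-708 and miR-708*, 3 of 6, against 23.8% of the 1679 mouse mature miRNAs in the table. In miR-3099 the adenosines of UAG stand at positions 2 and 7 counted from the 5′ end, in miR-708* at 6 and 21 and in miR-708 at 17. A whole UAG lay within the seed of miR-3099 and of miR-708*, as in 5.48% of all entries. Apart from miR-708 these miRNAs were chosen as edited, and miR-708 and miR-708* are arms of the same hairpin. Their UAG counts beside all entries are thus not independent evidence. miR-542-3p, miR-574-5p and miR-873 held no UAG in these letters. miR-574-5p consists of G and U in 21 of its 23 bases, a repeat of the kind known to bind the RNA-binding protein CUGBP1, and shares a run of 12 bases with miR-3082-5p, so some of its reads may be divided with other repeat-like miRNAs. For the other 5, the longest run shared with another mature miRNA was 9 to 11 bases.

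Only Mir3099 had a hairpin entry in the table, and it is shown because this miRNA carries UAG at 2 positions of its mature arm. It lies at chr7:6803587-6803670 of GRCm38.p6 on the plus strand and is 84 bases long, with both arms in capitals.
Mir3099: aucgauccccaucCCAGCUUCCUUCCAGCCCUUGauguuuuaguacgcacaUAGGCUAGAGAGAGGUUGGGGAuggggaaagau
In the structure predicted by RNAfold, with a minimum free energy of -41.3 kcal/mol, 17 of the 22 bases of the miR-3099 arm were paired. The adenosines of both UAG, at positions 53 and 58 of the hairpin, were unpaired. These are features of the sequence and its prediction, and no editing was measured.

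The other genes were placed with the annotation on NCBIM37, the assembly also called mm9. Mir708 lies at chr7:103397934-103398042 in an intron of Odz4 (teneurin 4, a transmembrane protein of neurons and oligodendrocytes), Mir873 at chr4:36615543-36615619 in an intron of Lingo2 (a neuronal transmembrane protein) and Mir574 at chr5:65361557-65361634 in an intron of Fam114a1, each on the strand of its host. Mir421 lies at chrX:100768254-100768338 in an intron of the long non-coding RNA B230206F22Rik, and Mir374 starts 145 bases away on the same strand. Mir542 lies at chrX:50402580-50402664 outside any other annotated gene, with 6 further miRNA genes (Mir322, Mir503, Mir351, 2 copies of Mir450 and Mir450b) within 50000 bases on the same strand. Mir876 is the only other miRNA gene that near to Mir873, and Mir708 and Mir574 have none.

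Mapped miRNA reads per library totalled 12449633 to 23471819 for wild type and 18645810 to 23935544 for Adar2-/-. RPM, the unit of abundance here, is a miRNA's reads in 1000000 mapped miRNA reads. The brain miRNAs miR-124, miR-9, miR-128 and miR-138 were present in every library, with a summed level of 126795 to 172986 RPM in wild type and 132484 to 144969 in Adar2-/-. Markers of other tissues were present too. Summed RPM was 108156 to 155374 in wild type and 19158 to 186903 in Adar2-/- for the sensory and pineal miR-182, miR-183 and miR-96, and 2558 to 3065 and 413 to 4731 for the epithelial miR-200a, miR-200b and miR-141, in each case highest in Adar2-/- replicate 1 and lowest in Adar2-/- replicate 3. For miR-375 and miR-7a of endocrine cells it was 1010 to 6270 and 1192 to 3640, highest in wild-type replicate 1. The ranges were 420 to 1540 and 1063 to 1479 for miR-451, miR-144 and miR-486 of blood, 2320 to 3121 and 2236 to 3355 for miR-1, miR-133a and miR-206 of muscle, 838 to 1584 and 1064 to 1622 for miR-204 and miR-211 of choroid plexus, and 3.95 to 4.9 and 4.16 to 7.23 for miR-122 of liver. No marker had 0 reads in a library. Adar2 mRNA was not analysed here, so the genotype labels rest on the sample titles.

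The 7 miRNAs spanned more than 2 orders of magnitude in abundance, and together they took 0.205% to 0.297% of the mapped reads of a library. The pair miR-708 and miR-708* supplied 84.4% to 91.5% of those reads. miR-708, miR-708* and miR-3099 held this order in all 6 libraries, and the ranges of miR-708 (1338 to 1934 RPM), miR-708* (477 to 922) and miR-3099 (82.7 to 154) did not overlap. Below them the ranges of miR-3099, miR-873 (47.2 to 88.3) and miR-421 (30.5 to 130) overlapped. miR-542-3p ranged from 15.3 to 31.6 RPM and miR-574-5p from 4.39 to 10.0. Ligation of adaptors differs between small RNAs, so these orders hold for reads and not necessarily for molecules. All 7 reached 100 reads in each library, the minimum set for testing. miR-574-5p only just did so, with 100 reads in wild-type replicate 2 and at most 147 in any library.

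**Figure D1:**
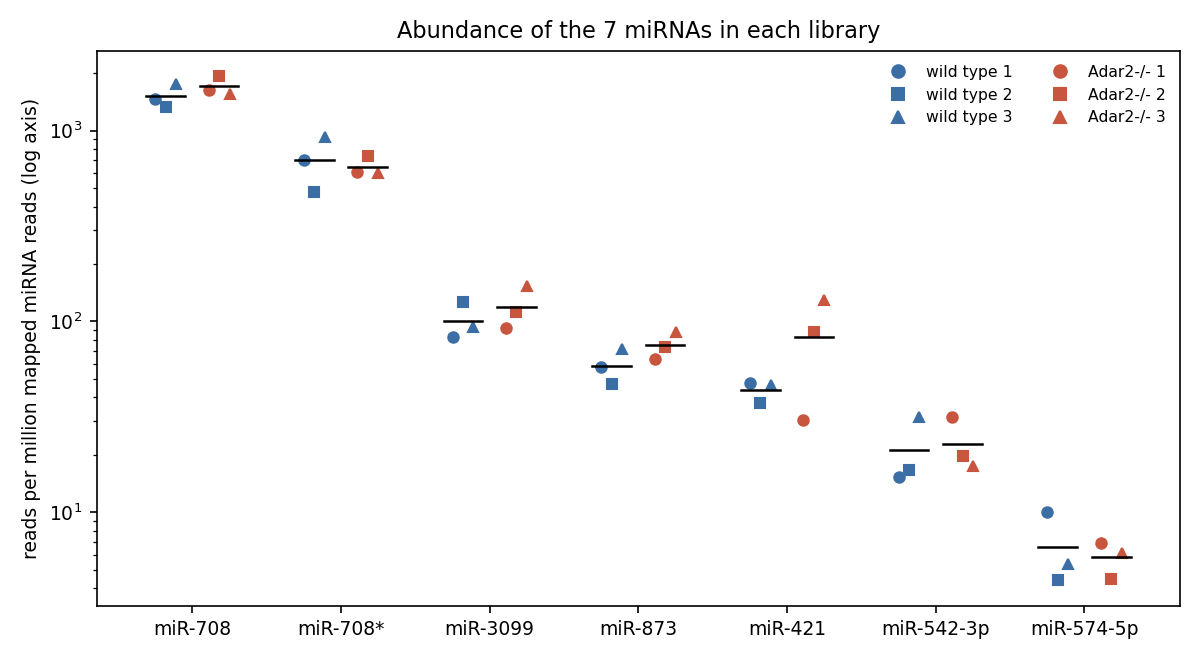
RPM (log axis) of the 7 miRNAs in each of the 6 libraries, wild type in blue and Adar2-/- in red, with a marker shape for each replicate number and a black line at the mean of each genotype. The genotypes overlap for all 7, and miR-421 has the widest spread, from 30.5 to 130 RPM within Adar2-/-.

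With all 6 libraries, no difference between genotypes beyond the spread between libraries was detected for any of the 7 miRNAs. In edgeR's quasi-likelihood test over the 399 miRNAs read 100 times or more in each of the libraries, 0 of the 7 passed an adjusted p of 0.05 (background 0% of the 399), and 0 of the 7 had an unadjusted p under 0.05 (background 3.26%). DESeq2 called 0 of the 7 (background 0.251%) and gave 1, miR-421, an unadjusted p under 0.05 (background 10.0%). The RPM of the genotypes overlapped for all 7, where 5.76% of the 399 did not overlap. Log2 fold changes, positive where Adar2-/- was higher, were above 0 for 5 and below 0 for 2, with a median of 0.17 beside 0.0023 over the 399. Their 95% intervals all included 0 and were wide, the narrowest, that of miR-708, running from 0.702-fold to 1.79-fold.

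**Figure D2:**
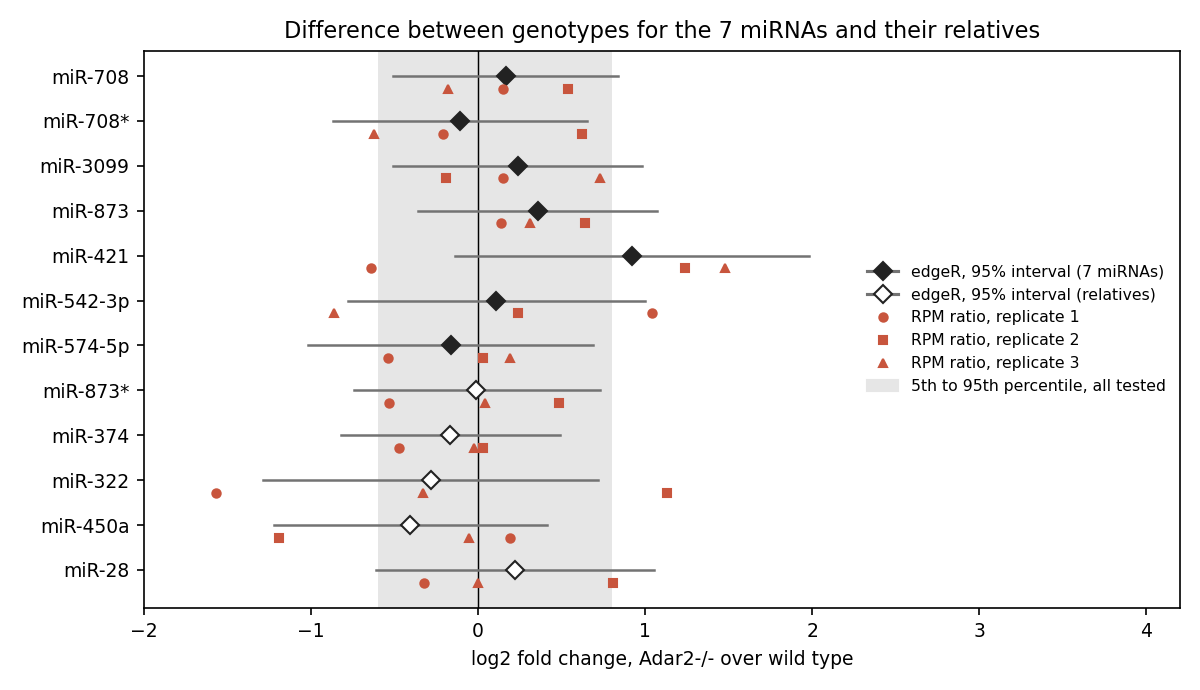
Log2 fold change of Adar2-/- over wild type by edgeR (diamonds) with 95% interval (lines), and the RPM ratio within each replicate number (red points), for the 7 miRNAs and 5 relatives (other arm, cluster neighbours, shared seed). The grey band spans the 5th to 95th percentile of the 399 tested miRNAs, -0.60 to 0.80, every interval includes 0, and only miR-421 lies outside the band with its estimate of 0.92.

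miR-3099, described as rising during neuronal differentiation, gave 1029, 2904 and 2182 reads in the wild-type libraries, in order of replicate number, and 1713, 2631 and 3693 reads in the Adar2-/- libraries. In RPM these were 82.7, 127 and 93.0 in wild type and 91.9, 112 and 154 in Adar2-/-. The highest library was Adar2-/- replicate 3 and the lowest wild-type replicate 1, and the other 4 were interleaved. Means were 101 ± 23.5 RPM (SD, n = 3) and 119 ± 31.9 (SD, n = 3), and the ratio was 1.18 (p = 0.6, exact permutation test). All exact permutation tests were two-sided and over the 6 libraries, and their p cannot fall below 0.1 with 3 against 3. EdgeR put the log2 fold change at 0.24 (standard error 0.335, 95% interval -0.51 to 0.98, adjusted p = 0.988). For this miRNA, whose seed holds UAG, the interval leaves room for anything from 0.704-fold to 1.98-fold.

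miR-421, known as a repressor of the DNA damage kinase ATM, had the largest estimate of the 7 and the most uneven one. It stood at 47.6, 37.4 and 46.7 RPM in wild type (592, 852 and 1097 reads) and at 30.5, 88.1 and 130 RPM in Adar2-/- (568, 2078 and 3117 reads). Adar2-/- replicate 1 lay below every wild-type library and the other Adar2-/- libraries lay above them all. Means were 43.9 ± 5.64 and 82.9 ± 50.1 RPM (SD, n = 3 each), and their ratio was 1.89 (p = 0.4, exact permutation test). Within replicate numbers, each a wild-type and an Adar2-/- library deposited together, the ratios of Adar2-/- to wild type were 0.641, 2.36 and 2.79. On the log2 RPM scale the SD of miR-421 was 0.19 in wild type and 1.08 in Adar2-/-, against medians of 0.42 and 0.38 over the 399 miRNAs. EdgeR put the log2 fold change at 0.92 (standard error 0.477, 95% interval -0.14 to 1.98, adjusted p = 0.988, 28th smallest unadjusted p of 399). Without replicate 1 of both genotypes it was 1.38 (adjusted p = 0.0476), the only call among the 7 in any fit, in a fit that called 18 of the 399 (4.51%), all 18 higher in Adar2-/-. Without Adar2-/- replicate 3, the library with the low sensory and epithelial markers, it was 0.43 (adjusted p = 0.995). From Adar2-/- replicate 1 to 3 miR-421 rose. The sensory markers fell (186903, 89664 and 19158 RPM), as did those of epithelium (4731, 2908 and 413) and blood (1479, 1192 and 1063). Those of endocrine cells rose (1192, 2465 and 3640), as did the brain miRNAs (132484, 141495 and 144969). Markers of muscle, choroid plexus and liver did not move in a single direction. The part of any of these markers in the result was not tested.

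Other miRNAs were set beside miR-421, first from its own locus and then by profile. miR-374, from the hairpin next to it in the same host intron, stood at 111, 85.2 and 91.8 RPM in wild type and at 79.7, 86.5 and 90.2 in Adar2-/-. Its ratios were 0.72, 1.02 and 0.983, with an edgeR estimate of -0.17 on the log2 scale (standard error 0.295, adjusted p = 0.989). miR-421* of the same hairpin had 27 to 94 reads in a library, with 3.53, 1.58 and 4.00 RPM in wild type and 1.45, 2.80 and 3.01 in Adar2-/-. miR-185 and miR-410 had the profiles nearest to miR-421 among the 392 other tested miRNAs, with a root mean square difference of 0.16 and 0.18 in centred log2 RPM over the 6 libraries, where the median was 0.70. Their ratios were 0.664, 2.08 and 2.48 for miR-185, and 0.773, 1.98 and 3.85 for miR-410, which lies in the imprinted Dlk1-Dio3 region. Counted after this pattern had been seen, 25 of the 399 miRNAs (6.27%) fell below their wild-type RPM for replicate 1 while exceeding it more than 2-fold for replicates 2 and 3.

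**Figure D3:**
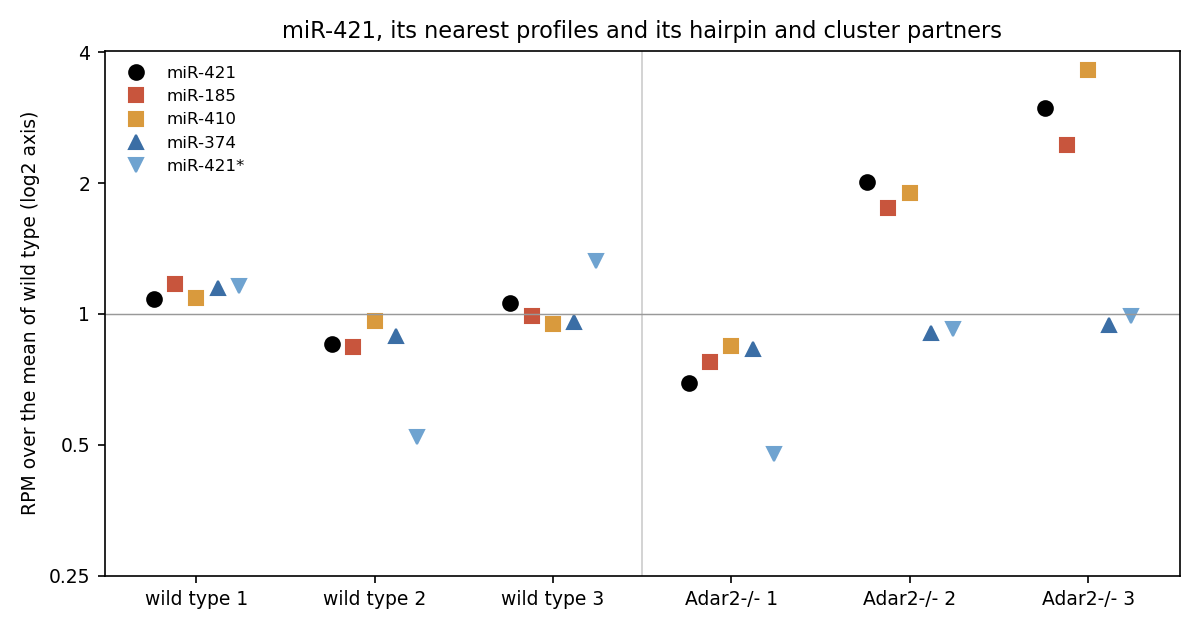
RPM of miR-421, its 2 nearest profiles (miR-185, miR-410), its cluster neighbour miR-374 and its other arm miR-421* in each library, divided by the mean of wild type (log2 axis). miR-421, miR-185 and miR-410 reach 1.75 to 3.64 in Adar2-/- replicates 2 and 3, whereas miR-374 and miR-421* stay between 0.902 and 0.99 there.

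miR-542-3p, known to target the apoptosis inhibitor survivin, stood at 15.3, 16.7 and 31.5 RPM in wild type (191, 381 and 740 reads) and at 31.6, 19.8 and 17.4 RPM in Adar2-/- (589, 467 and 416 reads). Wild-type replicate 3 and Adar2-/- replicate 1 were high and nearly equal, and the other 4 libraries lay between 15.3 and 19.8. The ratios within replicate numbers ran in opposite directions, 2.06, 1.18 and 0.551, and the means of 21.2 ± 8.97 and 22.9 ± 7.6 RPM (SD, n = 3 each) stood in a ratio of 1.08 (p = 0.5, exact permutation test). EdgeR put it at 0.11 on the log2 scale (standard error 0.398, 95% interval -0.78 to 1.00, adjusted p = 0.989), and the sign turned when libraries were left out, down to -0.38 without replicate 1.

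Of the 17 miRNAs chosen as cluster neighbours of miR-421, miR-542-3p and miR-873, only miR-374, miR-322 and miR-450a reached 100 reads in every library, and 0 of these 3 passed the threshold or an unadjusted p of 0.05. All 3 had negative log2 fold changes, with a median of -0.28, though those of miR-322 and miR-450a turned positive in some fits with libraries left out. miR-322, the most read of the Mir542 cluster and known for a part in cell cycle exit, stood at 1599, 589 and 1218 RPM in wild type and 539, 1289 and 970 in Adar2-/-. It was lowest where miR-542-3p was highest in Adar2-/-, in replicate 1, so that these neighbours were not read in a fixed proportion. miR-450a stood at 14.8, 31.7 and 20.7 RPM and at 16.9, 13.9 and 20.0. miR-503, a cell cycle regulator from the same cluster, was below the minimum with 38, 56 and 52 reads in wild type and 87, 98 and 149 in Adar2-/-, or 3.05, 2.46 and 2.22 RPM against 4.67, 4.16 and 6.23. Every Adar2-/- library lay above every wild-type library, with ratios of 1.53, 1.69 and 2.81 (p = 0.1, exact permutation test, the smallest possible). With the minimum lowered to 10 reads its log2 fold change was 0.97 (standard error 0.356, unadjusted p = 0.0196, adjusted p = 0.982 over 608 miRNAs), which does not pass the threshold. Overlap between genotypes was also absent for miR-542-5p, the opposite arm of miR-542-3p, in the other direction. It had 26, 39 and 49 reads in wild type and 19, 32 and 33 in Adar2-/-, or 2.09, 1.71 and 2.09 RPM against 1.02, 1.36 and 1.38. Its ratios were 0.488, 0.792 and 0.66 (p = 0.1, exact permutation test), and the fit with the minimum of 10 reads put it at -0.64 on the log2 scale (standard error 0.344, unadjusted p = 0.0896, adjusted p = 0.982). These were 2 of the 14 other arms and cluster neighbours with at least 10 reads throughout, and 5.59% of the 608 miRNAs at that minimum had no overlap. The opposite arm miR-503* had 68 to 212 reads, a log2 fold change of -0.18 (standard error 0.423) in that fit, and overlapped between genotypes. miR-351 had 63 to 282 reads and a log2 fold change of 0.06 (standard error 0.394). The other neighbours were scarce, and miR-876-5p and miR-876-3p beside miR-873 had at most 22 and 3 reads.

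miR-574-5p was the rarest of the 7, with 125, 100 and 126 reads in wild type and 129, 106 and 147 in Adar2-/-. In RPM these are 10.0, 4.39 and 5.37 against 6.92, 4.49 and 6.14. Wild-type replicate 1, the shallowest library, was the highest, and the other 5 lay between 4.39 and 6.92. Means were 6.6 ± 3.02 and 5.85 ± 1.24 RPM (SD, n = 3 each), which makes the ratio 0.887 (p = 0.9, exact permutation test). The log2 fold change was -0.16 (standard error 0.385, 95% interval -1.02 to 0.69, adjusted p = 0.989), and without wild-type replicate 1 it was 0.26.

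miR-708, from the teneurin intron, was the steadiest. It stood at 1472, 1338 and 1763 RPM in wild type (18320, 30489 and 41373 reads) and at 1640, 1934 and 1552 in Adar2-/- (30586, 45623 and 37155 reads), and it ranked between 49 and 68 among all miRNAs in every library. The highest of the 6 libraries was 1.45 times the lowest. Means were 1524 ± 217 and 1709 ± 200 RPM (SD, n = 3 each), which makes the ratio 1.12 (p = 0.4, exact permutation test). On the log2 scale edgeR estimated 0.17 (standard error 0.304, 95% interval -0.51 to 0.84, adjusted p = 0.989). The shared-seed relative miR-28, from chr16:24827868-24827889 (GRCm38.p6, plus strand) with the sequence below, stood at 303, 315 and 425 RPM in wild type and 242, 551 and 425 in Adar2-/- (log2 fold change 0.22, standard error 0.372, adjusted p = 0.989). Its RPM was lower than that of miR-708 in each library, and its lowest and highest values were both in Adar2-/-.
miR-28: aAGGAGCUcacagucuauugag

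miR-708*, the arm that the study lists as edited, stood at 700, 477 and 922 RPM in wild type (8715, 10872 and 21632 reads) and at 606, 735 and 598 in Adar2-/- (11307, 17339 and 14323 reads). The lowest and the highest library were both wild type, and the 3 Adar2-/- libraries lay between them. Means were 700 ± 222 and 647 ± 76.8 RPM (SD, n = 3 each), which makes the ratio 0.924 (p = 0.8, exact permutation test). The edgeR estimate was -0.11 on the log2 scale (standard error 0.342, 95% interval -0.87 to 0.65, adjusted p = 0.989). On the log2 RPM scale the SD was 0.48 in wild type and 0.17 in Adar2-/-, and the difference between these spreads was not tested.

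Because both arms come from the same hairpin, their ratio within a library is free of the scaling to total reads. miR-708* supplied 32.2%, 26.3% and 34.3% of the reads of both arms in wild type and 27.0%, 27.5% and 27.8% in Adar2-/-, and the 95% Wilson interval, for counting error alone, reached no further than 0.557 percentage points either way. The 3 Adar2-/- shares were close together, above the lowest wild-type share and below the other wild-type shares. The log2 ratio of miR-708* to miR-708 was -1.17 ± 0.29 in wild type and -1.40 ± 0.03 in Adar2-/- (SD, n = 3 each), a difference of -0.24 (p = 0.4, exact permutation test), and 73 of the 102 hairpins with both arms at 100 reads or more in every library had a larger difference in size.

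miR-873, from the Lingo2 intron, was the only 1 of the 7 that was higher in Adar2-/- in all 3 replicate numbers (background 9.02% of the 399 for higher), and 0 of the 7 were lower in all 3 (background 7.02%). It stood at 57.5, 47.2 and 71.3 RPM in wild type (716, 1075 and 1674 reads) and at 63.5, 73.7 and 88.3 in Adar2-/- (1184, 1739 and 2114 reads). The genotypes overlapped, since wild-type replicate 3 exceeded Adar2-/- replicate 1. Ratios were 1.10, 1.56 and 1.24, and means of 58.7 ± 12.1 and 75.2 ± 12.5 RPM (SD, n = 3 each) stood in a ratio of 1.28 (p = 0.2, exact permutation test). The log2 fold change was 0.36 (standard error 0.321, 95% interval -0.36 to 1.07, adjusted p = 0.988).

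miR-873*, with the sequence below, was read about as often as miR-873. It stood at 70.3, 46.5 and 69.1 RPM in wild type and at 48.6, 65.3 and 71.0 in Adar2-/- (log2 fold change -0.01, standard error 0.331, adjusted p = 0.997). Its share of the reads of both arms was 55.0%, 49.6% and 49.2% in wild type and 43.3%, 46.9% and 44.6% in Adar2-/-, and the 95% Wilson interval reached up to 2.44 percentage points either way. The highest Adar2-/- share was under the lowest wild-type share. This is not separate from the fold change of miR-873, 0.36 on the log2 scale beside -0.01 for miR-873*. The log2 ratio of miR-873* to miR-873 was 0.07 ± 0.19 in wild type and -0.29 ± 0.11 in Adar2-/- (SD, n = 3 each), a difference of -0.37 (p = 0.1, exact permutation test, the smallest possible). The arm ratios of 10 of the 102 hairpins (9.80%) did not overlap between genotypes, 5 in each direction, and 54 of the 102 had a larger difference in size. Of the 10 without overlap, 8 had a larger difference than miR-873. With each library left out in turn the difference was -0.43 to -0.26.
miR-873*: gAGACUGAcaaguucccggga

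**Figure D4:**
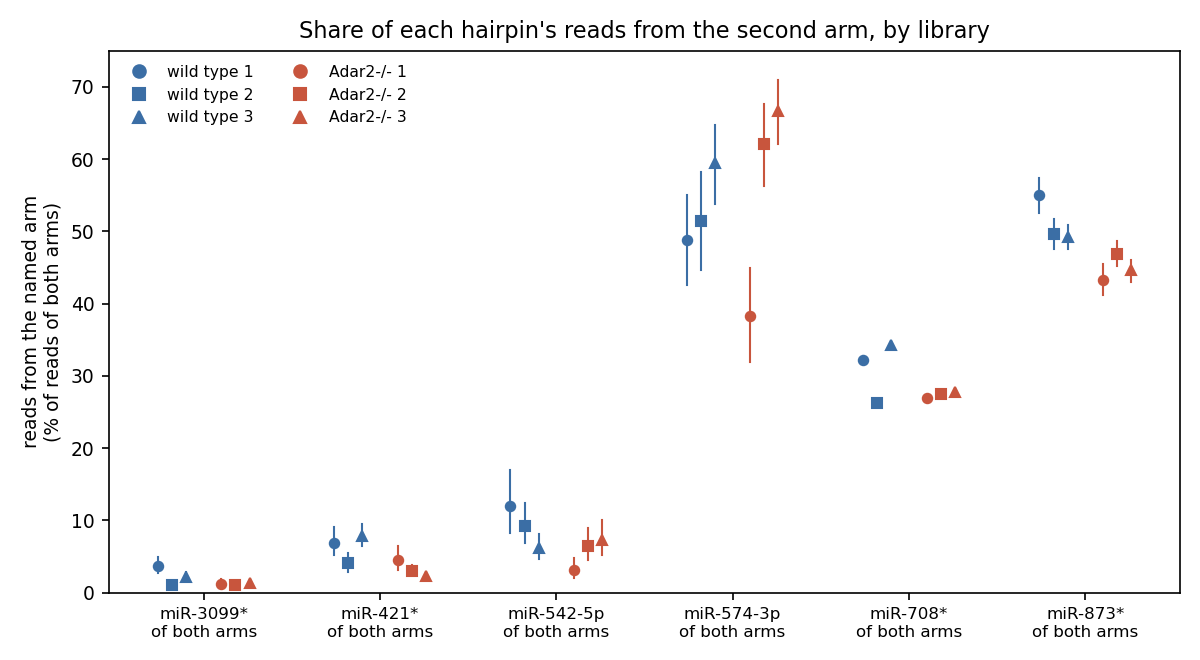
Share of the reads of both arms of a hairpin (percent) that came from the named second arm, for the 6 hairpins in each library, with 95% Wilson intervals as vertical lines. For miR-873* the 3 Adar2-/- libraries (43.3% to 46.9%) lie below the 3 wild-type libraries (49.2% to 55.0%), and for the other 5 arms the genotypes overlap.

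The second arms of the remaining hairpins were too scarce for the test, with 21 to 51 reads in a library for miR-3099*, 27 to 94 for miR-421*, 19 to 49 for miR-542-5p and 80 to 294 for miR-574-3p. miR-3099* made up 2.32% ± 1.3 of the reads of its hairpin in wild type and 1.22% ± 0.136 in Adar2-/- (SD, n = 3 each), so miR-3099 was the dominant arm in every library. The share of miR-421* was 6.92%, 4.05% and 7.89% in wild type and 4.54%, 3.08% and 2.26% in Adar2-/-, overlapping between genotypes, with a log2 difference of -0.98 (p = 0.2, exact permutation test). In the fit with the minimum of 10 reads miR-421* stood at -0.32 on the log2 scale (standard error 0.444) and miR-421 at 0.92. The arm ratio is therefore not separate from the estimate for miR-421. The share of miR-542-5p was 9.16% ± 2.89 and 5.63% ± 2.22, and on the log2 scale the ratio differed by -0.80 (p = 0.3, exact permutation test). miR-574-3p supplied 48.8% to 59.4% of the reads of its hairpin in wild type and 38.3% to 66.7% in Adar2-/-, without a preferred direction. With all ratios taken as star to other arm, or 5p to 3p, the mean log2 ratio was lower in Adar2-/- for 6 of the 6 hairpins and for 62 of the 102 hairpins of the background (60.8%), of which only those of miR-708 and miR-873 are among the 6. The direction for miR-574 turned when Adar2-/- replicate 2 or 3 was left out.

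The nearest profiles of the other 6 miRNAs were as follows, by the same root mean square difference over 6 libraries, and likeness of profile carries no statement on function. miR-34b-3p (0.09) and miR-379* (0.12) were nearest to miR-3099, and miR-93* (0.07) and miR-208b (0.08) to miR-708. miR-369-3p (0.09) and miR-3473 (0.10) were nearest to miR-708*, and miR-344c (0.12) and miR-29b (0.14) to miR-873. For miR-542-3p they were miR-142-3p (0.18) and miR-3470b (0.21), and for miR-574-5p miR-328 (0.17) and miR-409-3p (0.20). Among the 7 themselves the arms miR-708 and miR-708* were closest (0.20), followed by miR-708 and miR-873 (0.22), and miR-421 and miR-542-3p were farthest apart (0.98).

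A list of 21 other edited miRNAs named by the study, the large clusters included but not all the edited miRNAs it names, served as the comparison. All 21 were tested and 0 passed, 5 had an unadjusted p under 0.05 (4 higher and 1 lower in Adar2-/-), and 12 kept their direction in all 3 replicate numbers, 9 higher and 3 lower. Of the 7 miRNAs described here, 0 had such a p and 1 kept its direction. Over all 399 tested miRNAs 3.26% had such a p, 9.02% were higher and 7.02% lower in all 3 replicate numbers. The median log2 fold change was 0.41 for the 21 and 0.17 for the 7. The study chose part of the 21 for a change of abundance in these libraries, so the counts are not independent evidence, and the difference between the lists was not tested.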

How the data were processed

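The authors cut RNA of 19 to 25 nucleotides from gels of whole-brain RNA, sequenced it, trimmed adaptors with Cutadapt and aligned the reads with NextGenMap to mature miRNAs of miRBase, tolerating a few mismatches and dropping hits on the reverse strand. A read that matched several miRNAs equally well was shared among them by weight. The deposited tables, 3 in all, hold raw read counts of 1055 miRNAs for 1 wild-type and 1 Adar2-/- library each, as whole numbers. How weights were rounded is not given in the sources used here. Of their lines, 12 named no miRNA and were dropped. Each library had its own sequencing lane, so lane and brain cannot be told apart. The column headers of replicate 1 have another form than those of the other replicate numbers. What this difference stands for is not given in the sources used here.

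The test was edgeR's quasi-likelihood test (edgeR 4.0.16, R 4.3.3, glmQLFit and glmQLFTest). It took the 399 miRNAs that reached 100 reads in all 6 libraries, used total mapped miRNA reads as library size without a further factor, and adjusted p over the 399 after Benjamini-Hochberg (threshold 0.05). A standard error is the log2 fold change over the root of F. The edgeR test was first run on simulated counts with known changes, drawn independently for each miRNA and library. How often it finds changes of the size estimated here is not reported. Other settings tried were TMM, library sizes lacking the 5 most abundant miRNAs, DESeq2 1.42.0, a lower minimum (10 reads, or 1 read anywhere), the replicate number as a block, and fits with libraries left out. Python 3.11.15 with scipy 1.17.1 gave the permutation tests and Wilson intervals, and RNAfold of ViennaRNA 2.7.2 the hairpin structure.

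Named are the 7 miRNAs, their other arms, cluster neighbours, miRNAs of the tables with the same seed and, for each of the 7, the 2 nearest profiles. The members and lists were chosen with earlier results of these data known, and the arm names of miR-450a were changed to those of the tables. Precision is set by the spread between libraries more than by the total counts of 12449633 to 23935544. Libraries of a genotype differed by far more than sampling noise.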

Additional observations from a re-analysis of the deposited data

How the results depend on the processing

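Of 16 alternative fits, 15 called 0 of the 7 miRNAs, and the fit without replicate 1 of both genotypes called 1, miR-421 (log2 fold change 1.38, adjusted p = 0.0476; over the 16 fits this p reached 0.998). Leaving out libraries thus gave 0 to 1 calls. Replicate numbers did not pair the libraries: deviations from the genotype means correlated at -0.08 to -0.00 between libraries of the same number. The ratios and directions within a replicate number given above therefore rest on how the libraries were numbered. The replicate block gave 0 calls among the 7, a log2 fold change of 0.72 for miR-421, and no changed call. With libraries left out, miR-421 ranged from 0.43 to 1.38 and miR-873 from 0.22 to 0.52, both above 0 in all 16 fits. Signs changed for miR-3099 (-0.05 to 0.49), miR-542-3p (-0.38 to 0.68), miR-574-5p (-0.39 to 0.26), miR-708 (-0.02 to 0.35), miR-708* (-0.43 to 0.19), miR-873* (-0.22 to 0.24), miR-322 (-0.90 to 0.32) and miR-450a (-0.63 to 0.05), and the cause was not tested. The replicate block with TMM put miR-873* at 0.003.

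The number of the 7 with a single direction over the replicate numbers was 1. It was 2 when library sizes lacked the 5 most abundant miRNAs, miR-574-5p then being lower (22.3% of the 399 in either direction), and 3 to 3 with a replicate number left out, where fewer comparisons must match (62.4%, 44.9% and 24.8% of the 399 without replicates 1, 2 and 3). The arm ratio difference kept its sign for 5 hairpins, from -1.26 to -0.35 for miR-3099, -1.29 to -0.73 for miR-421, -1.08 to -0.40 for miR-542, -0.40 to -0.12 for miR-708 and -0.43 to -0.26 for miR-873. For miR-574-3p to miR-574-5p it ranged from -0.17 to 0.67. As a replicate block, pairing the arm ratios of miR-873 gave -0.37 (exact sign-flip permutation test, p = 0.25, the smallest possible).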
